A study of Rattus norvegicus with 14 samples.

Results

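The genes of the proteasome were measured in peripheral blood mononuclear cells (PBMC) of rats with collagen-induced arthritis and of healthy rats. The members were the genes whose single symbol in the annotation of the array starts with Psma, Psmb, Psmc, Psmd, Psme, Psmf or Psmg followed by a number, which gave 46 of the 14217 genes with a symbol of their own. All 46 were among the 10107 genes tested, and each had a signal above the array median on all 14 arrays. A gene was represented by 1 probe set, the one with the highest mean log2 signal. By role, 44 of the 46 belong to the proteasome, its activators, its inhibitor or its assembly chaperones. The other 2 only share the name: Psmc3ip encodes a recombination factor, and Psme3ip1 a partner of an activator subunit.

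The arrays were Affymetrix rat expression arrays of total RNA from female Wistar rats, and the labels number the arrays of a group without saying which animal each came from. MTXMS_A (MTXAP in the labels) were arthritic rats that received methotrexate together with mechanical stimulation by a rotated needle (acupuncture in the labels) over 34 days, 3 arrays. MS_A (AP) were arthritic rats with 34 days of stimulation alone, 3 arrays, and NOCIAMS_A (HAP) were healthy rats with the same stimulation, 3 arrays. CIA_B (RA) were arthritic rats sampled before any therapy, 2 arrays, and NOCIA_B (NORA) were healthy rats sampled before any therapy, 3 arrays. Arthritis had been induced with bovine type II collagen in Freund's adjuvant. The samples analysed here include no unstimulated rats at day 34, so time and therapy cannot be told apart in any comparison of a later with an earlier group. PBMC from a density gradient are a mixture of cells, and fewer cells of a type and less RNA per cell cannot be told apart in it.

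The proteasome degrades proteins tagged with ubiquitin. Its core particle is a barrel of alpha subunits (Psma) and beta subunits (Psmb), of which Psmb5, Psmb6 and Psmb7 carry the catalytic sites. A regulatory particle of ATPases (Psmc) and other subunits (Psmd) binds, unfolds and feeds in the substrate. In leukocytes, and elsewhere after interferon gamma, the catalytic subunits are replaced by Psmb8, Psmb9 and Psmb10. This immunoproteasome, together with the PA28 activator formed by Psme1 and Psme2, favours peptides that are loaded onto MHC class I molecules after transport by Tap1 and Tap2. Interferon acts on such genes through the interferon-stimulated response element (ISRE), bound by interferon regulatory factors.

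Promoter sequences of 42 of the 46 genes were matched in RefSeq (build GRCr8) by symbol or, failing that, by gene identifier. They were windows of 300 bases from 250 before to 50 after the transcript start. Psma7, Psmd12, Psmd14 and Psmd6 had no entry by either. The ISRE core was searched on both strands as TTTC, any 2 bases and TTTC again. It was present in 7 of the 42 windows (16.7%), against 3.92% of all 33469 promoters of the same length. The 7 genes were Psma4, Psmb10, Psmb3, Psmb8, Psmd7, Psme2 and Psmg4, so 2 of the 3 immunoproteasome genes and 1 of the 2 PA28 genes were among them. The windows of Psmb9 and Psme1 held none, and a missing match says only that these letters are not in that window. The stretch from position -150 to position 10 is shown for the immunoproteasome and PA28 genes, on which the later comparisons turn, and for Tap1, the head-to-head neighbour of Psmb9, whose 300-base window shares 44 bases with that of Psmb9. Capitals mark the ISRE core, and each sequence runs 5′ to 3′ on the strand of its gene.
Psmb8, chr20:4657022-4657181, minus strand: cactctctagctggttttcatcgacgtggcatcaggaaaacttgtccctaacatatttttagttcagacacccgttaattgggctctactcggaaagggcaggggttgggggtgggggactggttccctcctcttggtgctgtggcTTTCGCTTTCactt
Psmb10, chr19:50743283-50743442, minus strand: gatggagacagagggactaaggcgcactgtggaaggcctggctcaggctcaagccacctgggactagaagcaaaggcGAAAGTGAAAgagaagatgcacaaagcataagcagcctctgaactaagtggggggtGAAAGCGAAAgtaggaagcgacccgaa
Psme2, chr15:33052742-33052901, minus strand: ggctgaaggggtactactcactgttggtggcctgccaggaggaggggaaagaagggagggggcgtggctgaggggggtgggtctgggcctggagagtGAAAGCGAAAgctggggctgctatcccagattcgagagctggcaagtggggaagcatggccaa
Psmb9, chr20:4668850-4669009, plus strand: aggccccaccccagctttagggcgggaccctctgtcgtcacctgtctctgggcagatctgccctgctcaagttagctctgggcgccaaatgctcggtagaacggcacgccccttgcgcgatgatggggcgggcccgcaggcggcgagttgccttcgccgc
Psme1, chr15:33038821-33038980, plus strand: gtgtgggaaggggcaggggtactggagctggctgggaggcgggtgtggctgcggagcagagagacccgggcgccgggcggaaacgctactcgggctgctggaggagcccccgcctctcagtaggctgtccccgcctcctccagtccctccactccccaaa
Tap1, chr20:4668534-4668693, minus strand: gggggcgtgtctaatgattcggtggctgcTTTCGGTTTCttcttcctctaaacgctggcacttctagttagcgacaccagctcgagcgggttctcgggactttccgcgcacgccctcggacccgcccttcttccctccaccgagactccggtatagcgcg

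In Psmb8 the core spans positions -4 to 6 counted from the transcript start, where the base before position 1 is -1. Psmb10 has it at 2 places, -73 to -64 and -17 to -8, both on the strand opposite to the gene. In Psme2 it lies at -53 to -44, also on the opposite strand, and in Tap1 at -121 to -112. Other elements were counted in the same windows. The gamma activated sequence, searched as TTCNNNGAA, was in 9.52% of the members' windows and 8.87% of all, with Psmb8 among its 4 genes. The antioxidant response element core, TGACNNNGC, was in 16.7% and 12.1%, Psmb5 and Psmb2 included, and the CCAAT box was in 52.4% and 37.5%. None of these matches is a measured binding site.

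No member reached an adjusted p of 0.05 in any of the 6 comparisons between groups or in the difference between the changes of arthritic and healthy rats. The test was limma on log2 signals with Benjamini-Hochberg adjustment over 18515 probe sets, two-sided, and it called 0% of all probe sets in each of the 7. At an unadjusted p of 0.05 it marked from 999 to 2746 probe sets. Of the members, none differed by 2-fold in any comparison. Only the spread between these arrays enters the p-values. The third arrays of NOCIA_B and MTXMS_A stood apart, with mean correlations to the other arrays of 0.86 and 0.887 against up to 0.91, and the MTXMS_A array had an erythroid marker score (mean log2 signal of 14 genes, centred over the arrays) of -4.47, so values without both are given where they bear on a result. Values are log2 signals, and differences are log2 differences of group means ± SE from this fit, the first group minus the second. Within groups the median SD was 0.225 over the 46 members, with Psmb3 lowest at 0.122 and the inhibitor Psmf1 highest at 0.637. Over all genes tested it was 0.36. The members were above the array median on all 14 arrays, while a tested gene needed only 2. Genes of like signal were not compared.

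The immunoproteasome genes had their highest group means in arthritic rats, before therapy and after stimulation alone, and no difference passed the test. Their lowest means were in arthritic rats on methotrexate with stimulation and in healthy rats before therapy. Stimulated healthy rats lay between. For Psmb10 their mean of 11.467 was close to 11.519 in MS_A and 11.539 in CIA_B. Psmb9, the subunit that takes the place of Psmb6, had a log2 signal of 11.30, 11.75 and 11.96 in MTXMS_A, 12.27, 12.70 and 12.76 in MS_A, 12.10, 11.98 and 12.33 in NOCIAMS_A, 12.43 and 12.39 in CIA_B and 11.43, 11.94 and 11.93 in NOCIA_B. Every MTXMS_A array lay below every array of MS_A and CIA_B, and both CIA_B arrays lay above all of NOCIA_B. Psmb9 differed by -0.90 ± 0.23 in MTXMS_A against MS_A (limma adjusted p = 0.188), by -0.74 ± 0.26 in MTXMS_A against CIA_B (adjusted p = 0.913) and by 0.64 ± 0.26 in CIA_B against NOCIA_B (adjusted p = 0.583). These comparisons share arrays and are not independent of each other. Without the third arrays of NOCIA_B and MTXMS_A the difference of Psmb9 in MTXMS_A against MS_A was -1.05 (limma adjusted p = 0.159). Without the first MTXMS_A array it was -0.72.

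Psmb10, which replaces Psmb7, had 10.69, 10.88 and 11.28 in MTXMS_A, 11.42, 11.56 and 11.58 in MS_A, 11.59, 11.42 and 11.40 in NOCIAMS_A, 11.53 and 11.55 in CIA_B and 11.12, 11.12 and 11.16 in NOCIA_B. The MTXMS_A arrays were again below all arrays of MS_A and CIA_B, and the 3 NOCIA_B arrays lay within a narrow range below CIA_B and NOCIAMS_A. The differences were -0.57 ± 0.18 in MTXMS_A against MS_A (limma adjusted p = 0.214), -0.59 ± 0.20 in MTXMS_A against CIA_B (adjusted p = 0.901) and 0.41 ± 0.20 in CIA_B against NOCIA_B (adjusted p = 0.583).

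Psmb8, the counterpart of Psmb5, had 11.93, 11.96 and 11.82 in MTXMS_A, 12.20, 12.51 and 12.27 in MS_A, 11.97, 12.17 and 12.23 in NOCIAMS_A, 12.28 and 12.64 in CIA_B and 11.68, 11.72 and 12.36 in NOCIA_B. MTXMS_A did not overlap with MS_A or CIA_B, while CIA_B and NOCIA_B overlapped through the third NOCIA_B array. The differences were -0.42 ± 0.21 in MTXMS_A against MS_A (limma adjusted p = 0.372), -0.56 ± 0.24 in MTXMS_A against CIA_B (adjusted p = 0.922) and 0.54 ± 0.24 in CIA_B against NOCIA_B (adjusted p = 0.583).

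**Figure D1:**
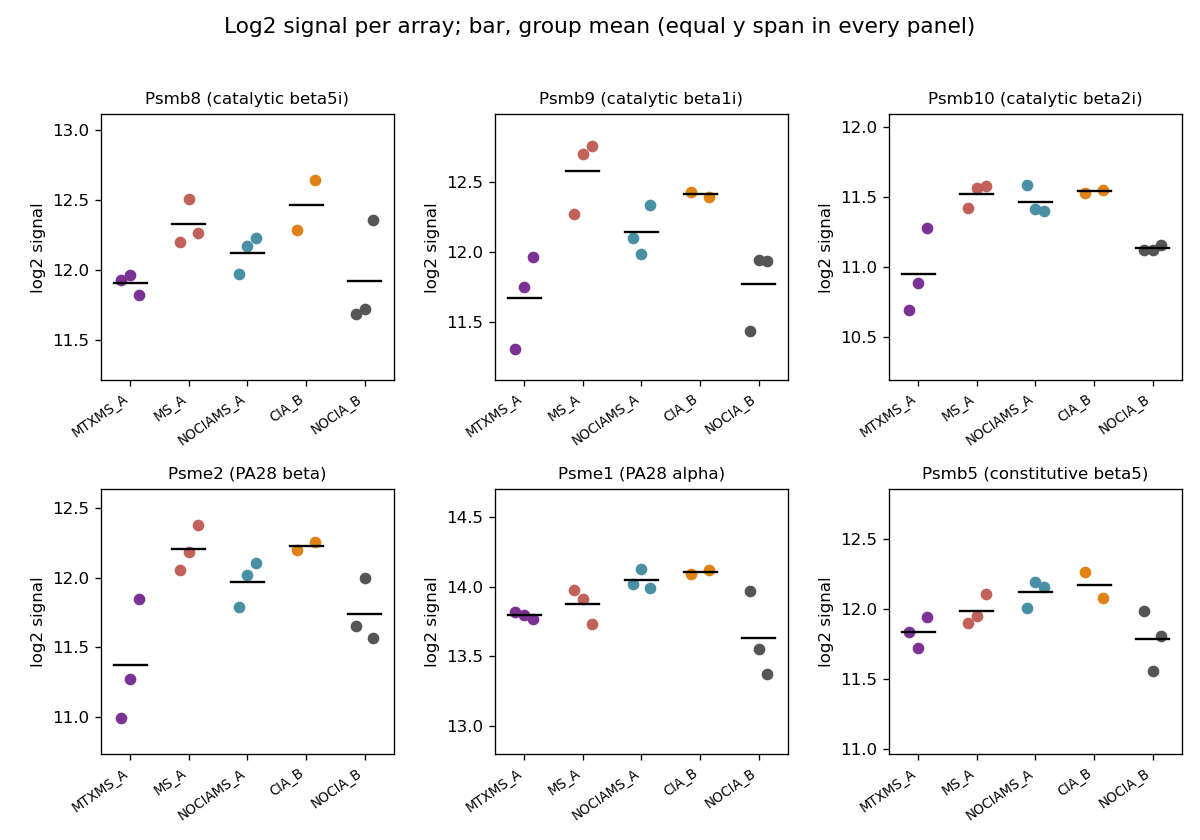
Log2 signal (vertical axis) of 6 proteasome genes on each of the 14 arrays by group; points are arrays and bars are group means. For Psmb8, Psmb9, Psmb10 and Psme2 the 3 MTXMS_A arrays lie below the 3 MS_A arrays, while Psme1 and Psmb5 overlap between these groups.

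The 2 PA28 subunits had unlike patterns. Psme2, the beta subunit, had 11.0, 11.28 and 11.84 in MTXMS_A, 12.05, 12.18 and 12.37 in MS_A, 11.79, 12.02 and 12.10 in NOCIAMS_A, 12.20 and 12.26 in CIA_B and 11.65, 11.999 and 11.57 in NOCIA_B. MTXMS_A was below MS_A and CIA_B on every array, by -0.83 ± 0.23 (limma adjusted p = 0.196) and -0.86 ± 0.26 (adjusted p = 0.901). Psme1, the alpha subunit, had 13.82, 13.80 and 13.77 in MTXMS_A and 13.98, 13.91 and 13.73 in MS_A, a difference of only -0.08 ± 0.18 with overlapping arrays (limma adjusted p = 0.868). Its signal was 14.02, 14.12 and 13.99 in NOCIAMS_A, 14.09 and 14.12 in CIA_B and 13.97, 13.55 and 13.37 in NOCIA_B. Psme1 stood higher in CIA_B than in NOCIA_B by 0.47 ± 0.20 (limma adjusted p = 0.583) and higher in NOCIAMS_A than in NOCIA_B by 0.41 ± 0.18 (adjusted p = 0.747), without overlap both times. The large activator subunit Psme4, PA200, ran the other way, at 11.44 and 11.45 in CIA_B and 11.38, 11.35 and 11.34 in NOCIAMS_A, against 11.65, 11.74 and 11.80 in NOCIA_B. The difference in NOCIAMS_A against NOCIA_B was -0.38 ± 0.17 (limma adjusted p = 0.747). The 2 other probe sets of Psme4 differed from the one used: they gave 0.21 and -0.15 in CIA_B against NOCIA_B, where it gave -0.28, and -0.14 and 0.47 in NOCIAMS_A against NOCIA_B, so the direction of Psme4 is not settled.

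The constitutive subunits Psmb5 and Psmb7, which Psmb8 and Psmb10 replace, overlapped between MTXMS_A and MS_A but not between MTXMS_A and CIA_B. Psmb5 had 11.84, 11.72 and 11.94 in MTXMS_A, 11.90, 11.95 and 12.11 in MS_A, 12.01, 12.19 and 12.16 in NOCIAMS_A, 12.26 and 12.08 in CIA_B and 11.99, 11.56 and 11.81 in NOCIA_B. Psmb7 had 9.49, 9.33 and 9.79 in MTXMS_A, 9.68, 9.74 and 9.48 in MS_A, 9.82, 9.82 and 9.72 in NOCIAMS_A, 9.87 and 10.20 in CIA_B and 9.98, 9.26 and 9.37 in NOCIA_B. In MTXMS_A against MS_A the differences were -0.15 ± 0.17 for Psmb5 and -0.10 ± 0.22 for Psmb7, with overlapping arrays in both. In MTXMS_A against CIA_B they were -0.34 ± 0.19 for Psmb5 (limma adjusted p = 0.981) and -0.50 ± 0.24 for Psmb7 (adjusted p = 0.959), without overlap, and Psmb7 was thus close to the values of Psmb8 and Psmb10 there. Psmb3, another constitutive beta subunit, did not overlap between MTXMS_A and MS_A (-0.35 ± 0.16, limma adjusted p = 0.345). It did not overlap between MTXMS_A and CIA_B either (-0.33 ± 0.18, adjusted p = 0.971). Whether the constitutive and the immunoproteasome subunits differ in their change was not tested. Psmb6 has no probe set with a single symbol and is not a member. The mean centred log2 signal of Psmb8, Psmb9 and Psmb10 minus that of Psmb5 and Psmb7 ran from -0.373 to -0.0139 over the MTXMS_A arrays, from 0.156 to 0.394 over MS_A, from -0.166 to 0.0321 over NOCIAMS_A, from -0.0012 to 0.035 over CIA_B and from -0.589 to 0.21 over NOCIA_B. MTXMS_A and MS_A thus did not overlap in this balance, while CIA_B lay inside the range of NOCIA_B.

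Across the 14 arrays, and as a description of arrays that share groups, Psmb9 correlated with Psmb10 at a Pearson r of 0.859, Psmb8 with Psmb9 at 0.715 and Psmb8 with Psmb10 at 0.576. Of the other members, Psme2 (r = 0.853) and the assembly chaperone Psmg2 (r = 0.799) followed the mean of the 3 closely. The constitutive Psmb3 followed it at 0.692, Psmb5 at 0.564, Psmb7 at 0.356 and Psme1 at 0.309. Among 10061 genes that are not members, the most alike were Dad1 (r = 0.925), Slc25a11 (0.916), Mocs2 (0.895), Arpc5 (0.891), Ivd (0.885), Mgat1 (0.883), Atp5f1c (0.872), LOC100909405 (0.872), Emp3 (0.867) and Mapkapk3 (0.866), so Tap1 and Tap2 were not in the first 10.

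Most of the remaining subunits had slightly higher values with arthritis before therapy, none past the test. In CIA_B against NOCIA_B, 40 of the 46 members were higher, with a median of 0.29 against 0.079 over all genes tested. The groups did not overlap for 18 members that were higher (39.1%, against 12.7% of all genes) and for 1 that was lower, Psme4 (2.17%, against 8.7%). Only 4 members had an unadjusted p under 0.05, Psmb9, Psme1, Psmb8 and Psmb2, a share of 8.7% that is close to the 8.14% of all genes. By role the medians were 0.54 for the immunoproteasome genes, 0.44 for the 6 constitutive beta subunits, 0.31 for the 6 ATPases, 0.29 for the 7 alpha subunits, 0.23 for the 4 Psmg assembly chaperones and 0.18 for the 14 Psmd genes. Without the third NOCIA_B array the ATPase median was 0.19 and the Psmd median 0.12, and without the first they were 0.48 and 0.33. All alpha, beta, ATPase and Psmg genes were above 0. Psma1 had the largest difference of the alpha ring, 0.64 ± 0.32, and Psmb2, a structural beta subunit, reached 0.50 ± 0.23, with 11.91 and 11.78 in CIA_B against 11.51, 11.30 and 11.22 in NOCIA_B. Psmd1, the large scaffold of the regulatory particle, and the inhibitor Psmf1 had values below 0, -0.44 ± 0.32 and -0.30 ± 0.53.

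Markers of other cells differed alongside. All 10 platelet markers tested were lower in CIA_B than in NOCIA_B, with a median of -1.67, and their summed signal ran from 88170 to 120700 in CIA_B and from 127200 to 379000 in NOCIA_B. All 14 erythroid markers were lower too, with a median of -1.37, which was -0.41 without the third NOCIA_B array. Of the 16 T cell markers 14 were higher, with a median of 0.33 (0.20 without the second NOCIA_B array). Of the 8 neutrophil markers 7 were higher, with a median of 0.80 (0.52 without the second NOCIA_B array). With the mean centred signal of the platelet markers as a covariate, the member median in CIA_B against NOCIA_B was 0.022, and 26 of the 46 genes were above 0. The slope on this score comes from spread within groups. That spread was widest in NOCIA_B, from -0.631 to 1.38, and in MTXMS_A, from -0.821 to 0.566. Apart from fits without 1 array, the alternatives, an erythroid covariate among them, gave member medians from 0.022 to 0.309. With the platelet score the immunoproteasome median was 0.83, against 0.0062 over the other 43 members and 0.0079 over all genes. It rested on Psmb8 at 0.85 ± 0.26 and Psmb9 at 0.83 ± 0.32, the highest of the 46. Psmb10 had 0.28 ± 0.24, below Psmg2 at 0.47 ± 0.27, Psmf1 at 0.40 ± 0.63, Psme2 at 0.34 ± 0.32 and Psme3ip1 at 0.30 ± 0.32, and Psme1 had 0.20 ± 0.21. All limma adjusted p in this fit were 1. In NOCIA_B the array with the lowest platelet score (-0.631, the first) had the highest member score (0.0636). The array with the highest platelet score (1.38, the third) had the lowest member score (-0.2448) and the highest erythroid score (2.31) of the group. In MS_A the platelet scores were -0.0501, 0.311 and 0.647, and the member scores 0.011, 0.0199 and 0.0019. The part of platelet, erythroid, T cell or neutrophil RNA in the shift was not tested. Without the third arrays of NOCIA_B and MTXMS_A the member median was 0.20 and the immunoproteasome median 0.73, and without the first NOCIA_B array the member median was 0.41.

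**Figure D2:**
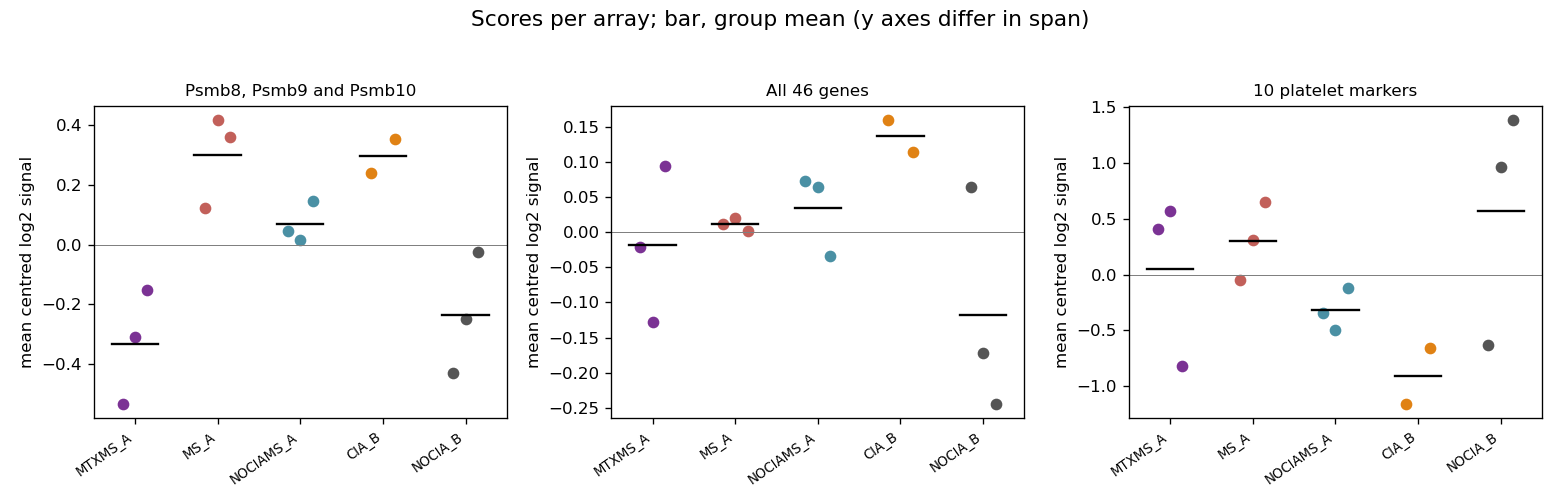
Mean centred log2 signal per array (vertical axis) of Psmb8, Psmb9 and Psmb10, of all 46 genes and of 10 platelet markers by group; points are arrays, bars are group means. The immunoproteasome score of MTXMS_A lies between -0.534 and -0.153, below the range of 0.122 to 0.416 in MS_A, while the score of all genes spans a much smaller range and is highest in CIA_B, where the platelet score is lowest.

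Most members had lower values after stimulation than in arthritic rats before therapy. In MS_A against CIA_B, 34 of 46 were lower, with a median of -0.14 against 0.011 over all genes. The groups did not overlap for 16 lower members (34.8%, against 19.6%) and for 1 higher member, Psmd10 (2.17%, against 17.5%), and no member had an unadjusted p under 0.05, against 6.99% of all genes. All 7 alpha subunits and all 6 ATPases had values below 0, with medians of -0.14 and -0.26, whereas the immunoproteasome median was -0.02. Psmd12 had the lowest value, -0.46 ± 0.34, and Psmd10, also known as gankyrin, the highest, 0.40 ± 0.20. Over the same groups all 10 platelet markers were higher, with a median of 1.42, and with their score in the fit the member median turned to 0.042. Of the T cell markers 12 of 16 were lower, with a median of -0.39 (-0.25 without the second CIA_B array) and a summed signal of 72100 to 82430 in MS_A and 91570 to 106600 in CIA_B. Of the monocyte markers 11 of 12 were higher, with a median of 0.61 (0.36 without the third MS_A array), as were all 7 B cell markers (0.54, and 0.28 without the second CIA_B array). The 13 of 14 higher erythroid markers had a median of 0.70, which was -0.081 without the first CIA_B array. The part of these cells in the result was not tested.

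In MTXMS_A against CIA_B, which shares the CIA_B arrays, 31 of 46 were lower, with a median of -0.11 (-0.175 without the second CIA_B array, -0.06 without the second MTXMS_A array) against -0.019 over all genes. Groups did not overlap for 13 lower members (28.3%, against 13.2%) and for 2 higher ones, Psmd9 and Psme4 (4.35%, against 8.9%). The 5 members at an unadjusted p under 0.05 were Psme2, Psmb10, Psmb9, Psmg2 and Psmb8 (10.9%, against 5.08%), all lower. The immunoproteasome median was -0.59, the constitutive beta median -0.30 and the ATPase median -0.056, which ranged from -0.21 to 0.074 with single arrays left out. With the platelet score in the fit the member median turned to 0.044, while the immunoproteasome median was -0.76. The platelet markers had a median of 0.93, all 10 above 0 (0.55 without the second MTXMS_A array). The 16 T cell markers had a median of -0.50 here (-0.31 without the third MTXMS_A array), with 15 below 0. Their summed signal was 66440 to 81910 in MTXMS_A and 91570 to 106600 in CIA_B. The NK cell median was -0.48, with 6 of 10 below 0 (-0.34 without the second MTXMS_A array). The neutrophil median was -0.53, with 6 of 8 below 0 (-0.025 without the first). The monocyte median was -0.29 (0.039 without the first) and the erythroid median -0.72 (1.19 without the third). The B cell median was 0.09 (-0.415 without the third). The part of these cells in the result was not tested.

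In healthy rats, NOCIAMS_A against NOCIA_B, 37 of 46 members were higher, with a median of 0.17 against 0.10 over all genes. Groups did not overlap for 8 higher members (17.4%, against 7.25%) and for 1 lower member, Psme4 (2.17%, against 2.54%), and 2 had an unadjusted p under 0.05, Psme1 and Psme4 (4.35%, against 5.76%). The immunoproteasome median was 0.34, which was 0.20 without the first NOCIA_B array, and the constitutive beta median 0.30, which was 0.16 without the third. The platelet markers had a median of -0.82, all 10 below 0, and with their score in the fit the member median was 0.016 and the immunoproteasome median 0.39. The member median without the first NOCIA_B array was 0.28, and without the third it was 0.071. The platelet median without these arrays was -1.62 and -0.38. All 12 monocyte markers were higher, with a median of 0.38 (0.062 without the first NOCIA_B array), and all 10 NK cell markers lower, with a median of -0.30 (-0.054 without the second). The neutrophil markers, 7 of 8 higher, had a median of 0.90 (0.52 without the second NOCIA_B array). The erythroid markers, 13 of 14 lower, had a median of -0.81, which was 0.10 without the third NOCIA_B array. The part of these cells in the result was not tested.

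The change with therapy in arthritic rats minus that in healthy rats was below 0 for 40 of the 46 members, with a median of -0.32 against -0.10 over all genes. The lowest limma adjusted p was 0.364, for Psme1 at -0.64 ± 0.27, the one member with an unadjusted p under 0.05 (2.17%, against 12.4% of all genes). With the platelet score in the fit the median turned to 0.028. All 10 platelet markers were above 0 in this difference, with a median of 2.42. Markers of other cells had medians of 1.5 for erythroid cells (0.67 without the third NOCIA_B array), 0.81 for NK cells and 0.18 for monocytes. For B cells the median was 0.04, for T cells -0.445, with 12 of 16 below 0, and for neutrophils -0.98, with 7 of 8 below 0. The part of these cells in the difference was not tested. In MS_A against NOCIAMS_A the members differed little, with a median of -0.052 against -0.034 over all genes and 18 of 46 above 0. Groups did not overlap for 1 higher member, Psmd10 (2.17%, against 7.3%), and 4 lower ones, Psma6, Psmc2, Psmd11 and Psme1 (8.7%, against 9.92%), and none had an unadjusted p under 0.05, against 4.38%. All 3 immunoproteasome genes had values above 0 here, from 0.05 for Psmb10 to 0.44 ± 0.23 for Psmb9, and the member median turned to 0.052 with the platelet score, the platelet markers having a median of 0.73. The immunoproteasome median was 0.20, and 0.11 without the second MS_A array. All 10 NK cell markers were higher here, with a median of 0.76, as were 10 of 12 monocyte markers (0.30, and -0.00034 without the third MS_A array) and 12 of 14 erythroid markers (0.17, and -0.17 without the second MS_A array). The part of these cells in the result was not tested.

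**Figure D3:**
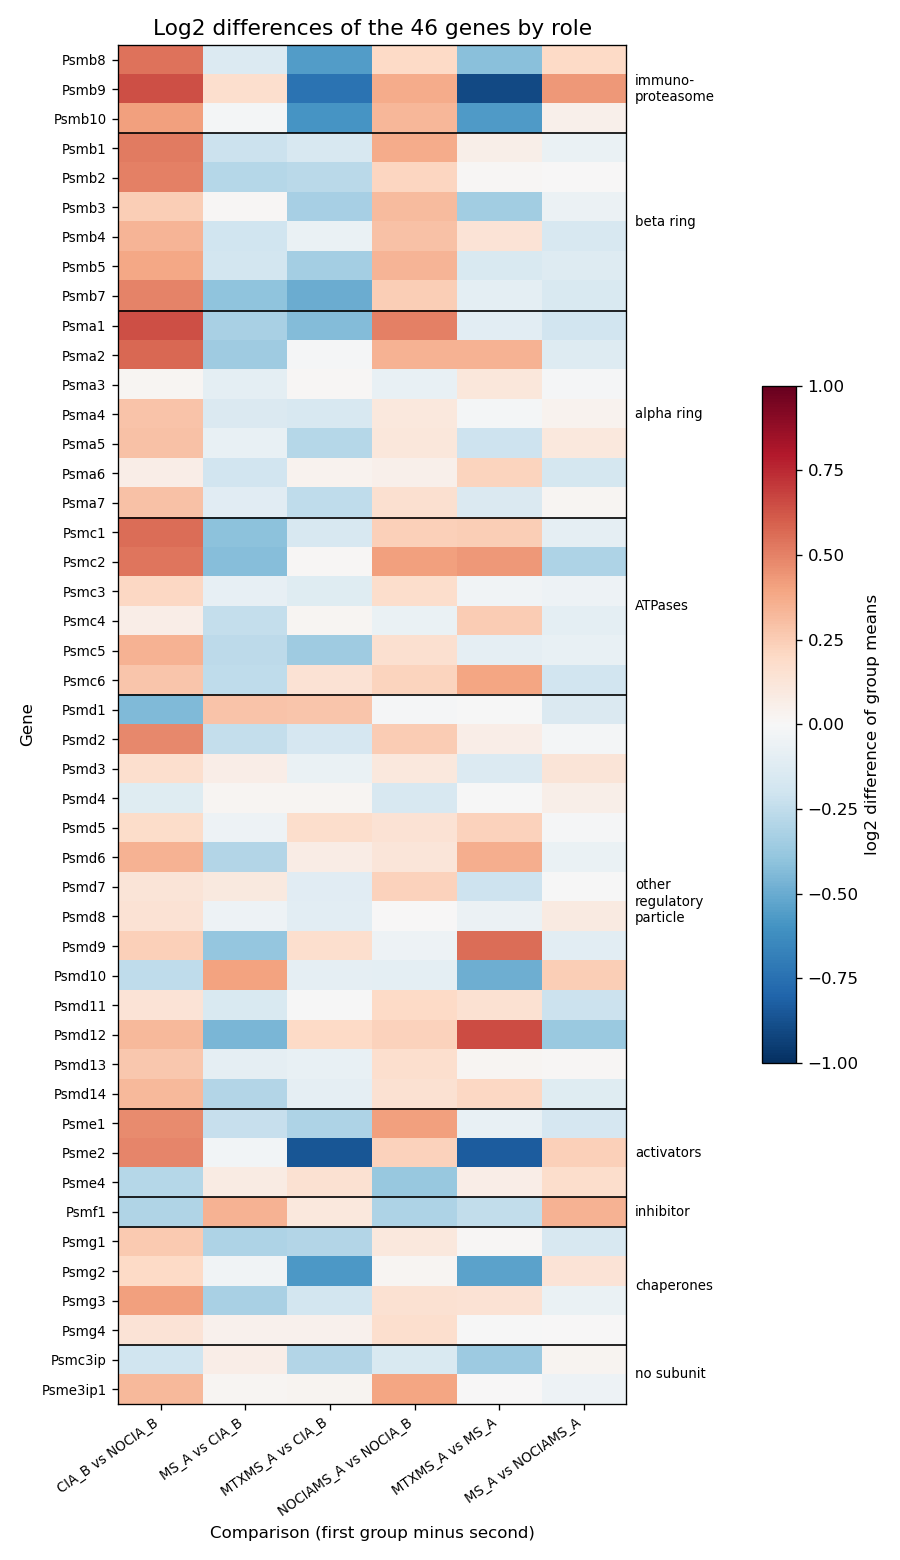
Log2 difference of group means (colour scale, first group minus second) for the 46 genes (rows, by role) in the 6 comparisons (columns). The first column is mostly above 0 (40 of 46 genes), and in MTXMS_A against MS_A the lowest values are those of Psmb9 (-0.90) and Psme2 (-0.83).

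With methotrexate added to stimulation, Psmb9, Psme2 and Psmb10 had the lowest values of the 46 genes, none past the test. In MTXMS_A against MS_A the median over the members was -0.0023, against -0.036 over all genes, with 22 of 46 above 0. The immunoproteasome median was -0.57 and the ATPase median 0.25, with 4 of 6 ATPases above 0 and the alpha ring at -0.017, the constitutive beta ring at -0.041 and the Psmd genes at 0.043. Groups did not overlap for 8 lower members (17.4%, against 11.8% of all genes) and for 7 higher ones (15.2%, against 11.8%). The 6 members at an unadjusted p under 0.05 were Psmb9, Psme2, Psmb10, Psmd10, Psmg2 and Psmd9, a share of 13%, which is close to the 15% of all genes in this comparison. With the platelet score in the fit the immunoproteasome median was -0.59, and without the third arrays of NOCIA_B and MTXMS_A it was -0.73. Without the first MTXMS_A array it was -0.44. The ATPase median was 0.15 without the third MTXMS_A array and 0.39 without the second. The medians of all members and of the alpha and beta rings turned sign with single arrays left out.

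Psmd9 and Psmd10 carry Psmd names but act as chaperones in the assembly of the regulatory particle base, and their values had opposite signs. Psmd9 had 10.33, 10.23 and 10.23 in MTXMS_A against 9.95, 9.88 and 9.29 in MS_A, a difference of 0.56 ± 0.23 (limma adjusted p = 0.305). Psmd10 had 9.33, 9.45 and 9.21 in MTXMS_A against 9.79, 9.77 and 9.91 in MS_A, a difference of -0.49 ± 0.18 (limma adjusted p = 0.25). Psmg2, a chaperone of the alpha ring, had 8.18, 8.28 and 8.44 in MTXMS_A against 8.52, 8.86 and 9.12 in MS_A, a difference of -0.53 ± 0.21 (limma adjusted p = 0.293). None of the 3 pairs of groups overlapped. Psmd12, a lid subunit, had the highest value, 0.66 ± 0.31, followed by Psmd9 and the ATPase Psmc2 at 0.44 ± 0.27. Psmb3 was the constitutive beta subunit with the lowest value, -0.35 ± 0.16, without overlap between the groups. For Psmd9 a second probe set gave 0.34 in this comparison but -0.65 in CIA_B against NOCIA_B, where the one used gave 0.24. Its mean log2 signal was low, 7.385 against 9.938 for the one used.

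In the same comparison 11 of 12 monocyte markers were lower, with a median of -0.82, all 10 NK cell markers were lower, with a median of -0.58, and 13 of 14 erythroid markers were lower, with a median of -1.44. The erythroid direction rested on the third MTXMS_A array, without which 12 of 14 were higher, with a median of 0.40. The monocyte median was -0.31 without the first MTXMS_A array, with 9 of 12 lower, and the NK cell median -0.28 without the second MS_A array. The summed monocyte signal ran from 45580 to 75010 in MTXMS_A and from 66680 to 84690 in MS_A, that of NK cell markers from 21220 to 32290 and from 25580 to 59940, and that of erythroid markers from 6402 to 174700 and from 69690 to 171700. The 16 T cell markers had a median of -0.16, the 7 B cell markers -0.24, the 8 neutrophil markers -0.54 and the 10 platelet markers -0.26. With single arrays left out these ranged from -0.27 to -0.04 for T cells, from -1.07 to -0.022 for B cells, from -0.98 to -0.083 for neutrophils and from -0.54 to 0.19 for platelets. The part of these cells in the immunoproteasome difference was not tested. All 10 platelet and all 10 NK cell markers, 15 of 16 T cell, 10 of 12 monocyte and 6 of 14 erythroid markers had signals above the array median on all 14 arrays.

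**Figure D4:**
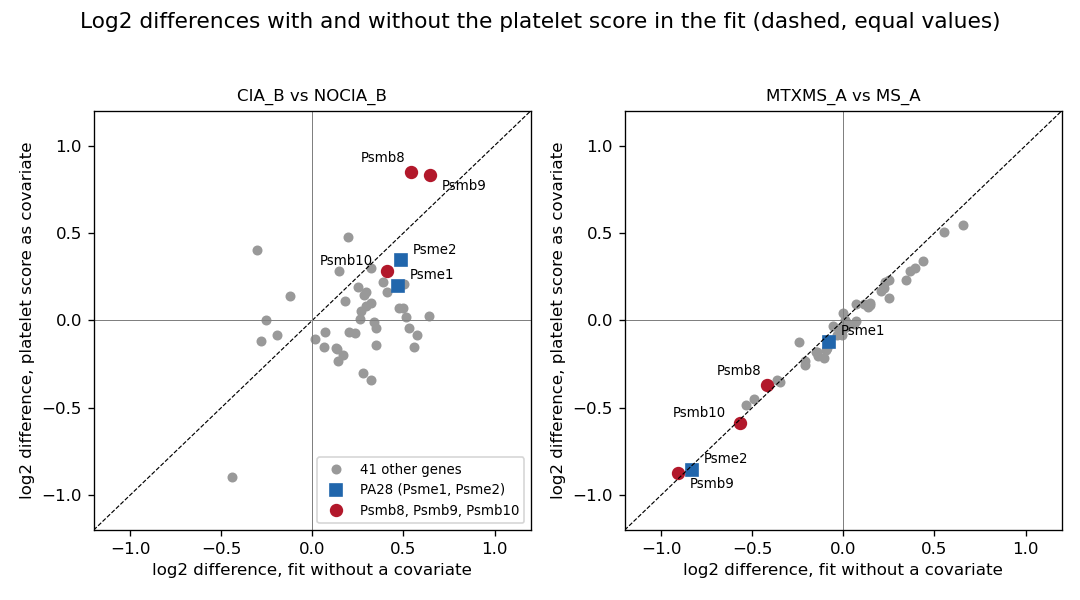
Log2 difference of each of the 46 genes without a covariate (horizontal axis) and with the platelet score as covariate (vertical axis) in CIA_B against NOCIA_B and in MTXMS_A against MS_A; each point is a gene and the dashed line marks equal values. In CIA_B against NOCIA_B the genes have a median of 0.022 on the vertical axis, with Psmb8 at 0.85 and Psmb9 at 0.83, and in MTXMS_A against MS_A the genes lie near the dashed line.

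Genes of the pathway outside the proteasome had mixed values. Of 12 tested genes of MHC class I antigen processing, none was called in any comparison, and 7 had values below 0 in MTXMS_A against MS_A, with a median of -0.017, which ranged from -0.095 to 0.046 with single arrays left out. Tap1, a subunit of the peptide transporter, had 10.62, 10.22 and 9.94 in MTXMS_A against 10.89, 11.24 and 10.5 in MS_A, a difference of -0.62 ± 0.28 (limma adjusted p = 0.339) with overlapping arrays. Its partner Tap2 had 11.32, 11.44 and 11.53 in MTXMS_A against 11.65, 11.77 and 11.63 in MS_A, a difference of -0.25 ± 0.15 without overlap (limma adjusted p = 0.459). In CIA_B against NOCIA_B, 8 of the 12 were above 0, with a median of 0.20, led by the MHC class I transactivator Nlrc5 at 0.89 ± 0.28 and by Tap2 at 0.67 ± 0.17 (limma adjusted p = 0.583 for both). B2m, the light chain of MHC class I, was at -0.47 ± 0.32 there. It had 15.39 and 15.67 in CIA_B and 15.92, 15.41 and 16.67 in NOCIA_B, so its size leaned on the third NOCIA_B array. Of the 8 interferon gamma regulators, 4 had values above and 4 below 0 in MTXMS_A against MS_A, among them the kinase Jak2 at -0.67 ± 0.24 and the factor Irf2 at -0.68 ± 0.28, against the receptor chain Ifngr1 at 0.72 ± 0.31. In CIA_B against NOCIA_B their median was 0.11, which was -0.022 without the third NOCIA_B array.

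Of 20 genes of proteasome partners (shuttle factors, deubiquitinases, the maturation factor Pomp and regulators of proteasome transcription), 13 were above 0 in MTXMS_A against MS_A, with a median of 0.17 (0.074 without the first MS_A array), and none was called. The deubiquitinase Usp14 had 0.53 ± 0.22, the shuttle factor Ubqln1 0.66 ± 0.28, the thioredoxin-like Txnl1 0.56 ± 0.22 and the stress factor Nfe2l2 1.10 ± 0.46 (limma adjusted p from 0.293 to 0.31). Pomp, which assembles the core and its immunoproteasome form, was at -0.12 ± 0.16 there and at 0.34 ± 0.18 in CIA_B against NOCIA_B, where 15 of the 20 were above 0 with a median of 0.22 (0.11 without the third NOCIA_B array). The ubiquitin-activating enzymes Uba1 and Uba6, the 2 tested genes of the ubiquitin list, were at -0.25 ± 0.17 and -0.03 ± 0.21 in MTXMS_A against MS_A.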

How the data were processed

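The authors used affy (version not stated) to obtain a MAS5 intensity for each probe set, on a linear scale, and the deposited arrays share a trimmed mean of 500. Median signals ran from 104 to 148.6, and precision is limited by how few arrays there are. Of 31042 probe sets without controls, 18515 were tested, those whose signal passed the median of the array on 2 or more arrays. The log2 of the signal, with no pseudocount, entered a limma fit (version 3.58.1, R 4.3.3) with a mean for each group over all 14 arrays, with two-sided tests and Benjamini-Hochberg adjustment over all probe sets tested, called at 0.05. Lists and scores used 1 probe set per gene, and scores are means of genes centred on their mean over the arrays. Labels give no origin of replicates beyond separate arrays, and rats were killed at sampling, so groups were compared as independent. That MS_A, MTXMS_A and the other codes of the study are AP, MTXAP and the other label names is a reading made here.

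Values per array are given for Psmb8, Psmb9, Psmb10, Psmb5, Psmb7, Psme1 and Psme2, and for up to 2 further members per direction and comparison with an unadjusted p under 0.05. Other genes are named as extremes, lone members of a count or list members and were chosen after their values were seen. The members, the lists of antigen processing, interferon gamma regulators, proteasome partners, ubiquitin genes and cell markers, and the tests were chosen with earlier results of these data known. The script for the fit was tested on simulated data. Medians of lists and roles were also computed without each array in turn, an alternative added after seeing the data. Alternatives concerned normalization, filter, pseudocount, moderation, array weights, arrays in the fit, probe set per gene and covariates. They also concerned the replicate block and the p and fold thresholds of the study.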

Additional observations from a re-analysis of the deposited data

How the results depend on the processing

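With estimated array weights, 1 member was called in CIA_B against NOCIA_B (Psmg3, 0.64 ± 0.16, adjusted p = 0.0494) and 2 in the difference between the changes of arthritic and healthy rats (Psme1, -0.69 ± 0.19, adjusted p = 0.047, and Psmb5, -0.71 ± 0.20, adjusted p = 0.0499), by limma. No member was called under any of the other 26 settings. Over all probe sets, array weights called 765 and 1651 in these, against 0 without weights, and leaving out NOCIA_B replicate 1 called 168 and 980. An unadjusted p under 0.05 with a fold above 2 marked from 347 to 866 probe sets in the comparisons between groups. It marked 1886 in the difference of changes, and no member in any. These are the thresholds of the study without its filters on detection calls. With the platelet score as a covariate the member median was 0.0224 in CIA_B against NOCIA_B, 0.0423 in MS_A against CIA_B, 0.0435 in MTXMS_A against CIA_B, 0.0162 in NOCIAMS_A against NOCIA_B and 0.0275 in the difference of changes. Arrays were left out 1 at a time in the fit without a covariate. The member median in CIA_B against NOCIA_B then ranged from 0.203 (without NOCIA_B replicate 3) to 0.409 (without NOCIA_B replicate 1). In NOCIAMS_A against NOCIA_B it ranged from 0.071 to 0.281, without the same arrays. The immunoproteasome median in MTXMS_A against MS_A ranged from -0.732 to -0.439 over the arrays left out, and was -0.732 without the 2 arrays of lowest mean correlation, NOCIA_B replicate 3 and MTXMS_A replicate 3, an alternative chosen after seeing the data. Replicate numbers were not treated as pairs, and the labels do not say whether arrays of the same number share an origin. The median correlation of deviations was 0.055 over 26 same-numbered pairs, 10 of them over 0.1. Over 52 different-numbered pairs it was -0.0435, with 14 over 0.1. With a replicate block no member was called and the member median in CIA_B against NOCIA_B was 0.262. Of 2184 values of the 12 named genes under alternatives, 55 had another sign. Groups of 2 or 3 arrays limit all comparisons.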

Other observations

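Probe sets with several symbols were outside the members. The one shared by Psmb6l1 and Psmb6, the constitutive counterpart of Psmb9, had log2 differences of -0.02 in MTXMS_A against MS_A and 0.15 in CIA_B against NOCIA_B. The one shared by Psma3l and Psma3 had -0.35 in MTXMS_A against MS_A, where the probe set of Psma3 alone had 0.11. Of 3 probe sets shared by Psme3, the subunit of the nuclear PA28 form, with Aoc3 and G6pc1, the values in MTXMS_A against MS_A were -0.75, -0.23 and -0.12 (limma adjusted p from 0.243 to 0.958). Psmd7 had -0.21 on the probe set used and 0.44 on the other in MTXMS_A against MS_A. Of the members with several probe sets, Psmd14 had 0.32 on the one used and -0.31 and 0.40 on the others in CIA_B against NOCIA_B. The Psmd14 probe set at -0.31 had a low mean log2 signal, 7.279 against 11.21 for the one used. Psmd7 had 0.13 on the one used and 0.66 on the other.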
